A study of Mus musculus with 2 samples.

Results

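Oxidative phosphorylation is carried out in the inner mitochondrial membrane by complexes whose subunits come from the mitochondrial and the nuclear genome. The genes described here are those of the deposited gene list whose symbols follow the naming of these complexes (mt-Nd, mt-Co, mt-Cytb and mt-Atp for the mitochondrial genome, and Nduf, Sdh, Uqcr, Cox4 to Cox8 and Atp5 for the nucleus). The pattern matched 127 of the 55357 listed genes. Leaving out the 14 genes whose symbols mark them as pseudogenes (-ps) gave 113 members, of which 13 are mitochondrial-encoded and 100 nuclear-encoded. Other genes were kept by symbol, also those without a coding transcript in the annotation used (Ndufs6b, Ndufb4c, Ndufa11b, Cox6c2 and Ndufb1). The nuclear members are 41 subunits of complex I, 4 of complex II, 8 of complex III, 21 of complex IV, 18 of complex V (ATP synthase) and 8 assembly factors of complex I. Ndufa4 and its paralogue Ndufa4l2 were counted with complex IV, and Atp5o is listed under 2 identifiers, of which 1 holds nearly all of its counts. The ATP synthase inhibitor does not carry a symbol of this pattern and is no member.

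The cells came from tumours of RENCA, a mouse kidney cancer line, grown in the kidneys of BALB/c mice. One droplet single-cell library was labelled SMYD3 knockdown and 1 was labelled WT. SMYD3 is a lysine methyltransferase, and the label refers to the engrafted tumour cells. By the series record, cells positive for CD45 were sorted, a protein on the surface of white blood cells. Most cells below are therefore host cells, for which the labels name no alteration, although the sample records name the cell type as epithelial. The sources used here state neither the age of the mice, nor how many tumours went into a library, nor how the knockdown was made. With 1 library for each label there is no replicate and no test between labels. Every interval below is a 95% interval of counting error only (exact Poisson for levels, exact binomial for shares, conditional binomial for ratios) and does not hold the spread between mice.

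In the respiratory chain, complex I takes electrons from NADH and complex II takes them from succinate. Complex III passes them on to cytochrome c, and complex IV transfers them to oxygen. Complexes I, III and IV pump protons, and complex V lets the protons back to make ATP. The mitochondrial genome encodes core proteins of complexes I, III, IV and V and the 2 mitochondrial ribosomal RNAs, and complex II is built from nuclear genes alone. Macrophages use this pathway to a degree that differs with their state, while mature neutrophils hold few mitochondria and live largely by glycolysis.

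The knockdown-labelled library held 10186 barcodes and 95803321 unique molecules (UMIs), and the WT-labelled library held 9265 barcodes and 91523767 UMIs. Of these, 9507 and 8682 passed the filters, with medians of 9177 and 9816 UMIs. The libraries share 22 barcode sequences. The targeted gene did not separate the labels: in tumour-like cells Smyd3 was at 18.8 UMIs per 1000000 UMIs of the class (CPM; interval 12.8 to 26.7, 31 UMIs) in the knockdown-labelled library and at 15.6 (11.2 to 21.2, 41 UMIs) in the WT-labelled library. The samples are therefore called by their labels throughout. Cells were gated on marker genes into 6430 and 6463 monocyte-macrophage-like cells, 1956 and 1131 neutrophil-like cells, 173 and 245 dendritic-cell-like cells, 90 and 127 T-cell-like cells and 59 and 100 tumour-like cells (knockdown label first). Defining markers of each class are given as a description. All of them but the last, Ptprc, also served in the gates. Their presence was therefore largely set by the selection and does not check the names. Csf1r, the receptor for macrophage colony-stimulating factor, was found in 86.2% and 88.6% of monocyte-macrophage-like cells, S100a9 in 94.8% and 90.9% of neutrophil-like cells and Cd3e in 90.0% and 88.2% of T-cell-like cells. Flt3, a receptor of dendritic cells and their precursors, was found in 62.4% and 51.0% of dendritic-cell-like cells. Tumour-like cells held the keratin Krt8 in 100% and 99% of cells, but the epithelial adhesion gene Epcam had just 1 and 22 UMIs there, and Ptprc, the gene of CD45, was at 10.3 and 20.2 CPM against 332 and 365 CPM in monocyte-macrophage-like cells. Median depth was 12135 and 11564 UMIs per monocyte-macrophage-like cell but 1388 and 1314 per neutrophil-like cell. Pancreatic acinar transcripts came almost entirely from 1 library: in neutrophil-like cells the 10 markers made up 20.2 of 10000 UMIs under the knockdown label, where all 10 were present, and 1 UMI in all under the WT label.

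Of the 13 mitochondrial-encoded genes, 5 have nearly all of their sequence repeated in a copy of part of the mitochondrial genome on chromosome 1, which bears on their counts. In the mm10 annotation GENCODE vM21 a row of unprocessed pseudogenes on the minus strand of chromosome 1 repeats the stretch from mt-Co1 to mt-Nd4. A read that fits both places equally cannot be assigned to one of them. Every one of the 50-base windows of mt-Co2 occurs in another transcript (100%), as do 99.5% of those of mt-Atp6, 99.9% of mt-Co3, 98.0% of mt-Nd3 and 98.8% of mt-Nd4l. The share is 62.2% for mt-Nd4 and 51.1% for mt-Co1, and it is 0 for mt-Nd1, mt-Cytb, mt-Nd6 and mt-Atp8. Only annotated transcripts were searched, not the chromosome sequence. mt-Atp8 lies between mt-Co2 and mt-Atp6, inside the repeated stretch, so its 0 does not show that its reads fit the mitochondrial genome alone. The first 60 bases of mt-Nd3 (chrM:9459-9518, plus strand), which encodes a core subunit of complex I, and of its copy Gm28438 (chr1:24613060-24613119, minus strand) show the 1 base by which they differ, T3C counted from the first base of the gene, in capitals:
mt-Nd3: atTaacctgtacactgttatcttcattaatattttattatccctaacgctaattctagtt
Gm28438: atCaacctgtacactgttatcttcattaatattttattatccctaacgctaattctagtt

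For comparison, mt-Co2 (chrM:7013-7072, plus strand), a catalytic subunit of complex IV, and its copy Gm28661 (chr1:24615506-24615565, minus strand) have no difference over the 681 bases compared, so their first bases carry no capitals:
mt-Co2: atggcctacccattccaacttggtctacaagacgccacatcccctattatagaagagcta
Gm28661: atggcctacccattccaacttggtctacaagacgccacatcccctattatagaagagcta

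The counts of this pair and of mt-Nd3 went in opposite ways. Over all barcodes mt-Co2 held 2402 UMIs and Gm28661 held 237, whereas mt-Nd3 held 125 UMIs and Gm28438 held 35479. The levels of mt-Co2, mt-Co3, mt-Atp6, mt-Nd3 and mt-Nd4l are therefore uncertain, and their ratios are given as those of the reads that the counting left in place. Among nuclear members the sharing was lower, with a median of 0.123% of windows, none in 48 of 100 members and over 10% in 19.

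The share of a cell's transcripts that came from the members differed more between cell classes than between the labels. Mitochondrial-encoded members made up 0.939% (0.937 to 0.941) of UMIs in monocyte-macrophage-like cells under the knockdown label and 0.927% (0.925 to 0.929) under the WT label. In neutrophil-like cells the shares were 0.406% (0.399 to 0.413) and 0.553% (0.542 to 0.564). Dendritic-cell-like cells had 0.561% and 0.596%, and T-cell-like cells 0.714% and 0.694%. Tumour-like cells stood above every other class named here with 2.83% (2.80 to 2.85) and 2.48% (2.46 to 2.50).

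Nuclear-encoded members had the same classes at the ends. Their share was 1.96% and 1.92% in monocyte-macrophage-like cells, 0.826% and 0.878% in neutrophil-like cells, 1.73% and 1.71% in dendritic-cell-like cells, 1.57% and 1.68% in T-cell-like cells and 2.69% and 2.64% in tumour-like cells. In both libraries tumour-like cells were highest and neutrophil-like cells lowest for both genomes, but the low place of the WT-labelled neutrophil-like cells in the mitochondrial-encoded share depended on the processing. Without the mitochondrial ceiling their share was 0.742%, above the dendritic-cell-like (0.596%) and T-cell-like cells (0.694%), and under a stricter marker gate it was 0.542% against 0.522% in dendritic-cell-like cells. T-cell-like cells were above dendritic-cell-like cells for the mitochondrial genome and below them for the nuclear one, where the intervals overlapped in the WT-labelled library (1.64 to 1.71 and 1.69 to 1.72). The nuclear order turned under the stricter gate, to 1.59% and 1.72% in T-cell-like against 1.54% and 1.52% in dendritic-cell-like cells. The tumour-like cells were deep, at 22519 and 27180 UMIs per cell in the median, and 28 and 49 of them had epithelial marker levels under 2 times the minimum of the gate.

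**Figure D1:**
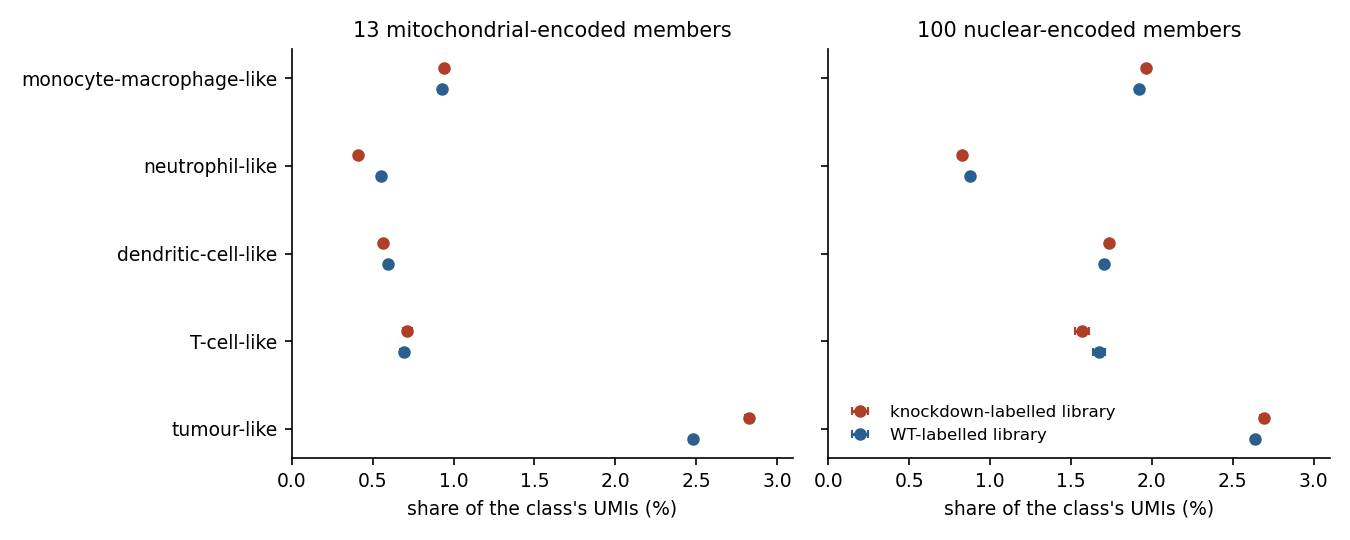
Share of each class's UMIs (percent, horizontal axes) from the 13 mitochondrial-encoded (left) and the 100 nuclear-encoded members (right) in 5 marker-gated classes, with 1 point per library and 95% binomial intervals of counting error. Neutrophil-like cells are lowest in both panels (0.406% and 0.553% on the left, 0.826% and 0.878% on the right), and tumour-like cells are highest.

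Between the labels, the mitochondrial-encoded members were close to even in macrophages and lower under the knockdown label in neutrophils. In monocyte-macrophage-like cells the median difference (log2 of CPM + 5, knockdown label minus WT label) over the 11 members that reached the floor (a maximum over the labels of at least 20 UMIs and of at least 10 CPM) was 0.01, beside -0.02 over all 7905 genes measured in that class. In neutrophil-like cells the median over 10 members was -0.45, beside -0.07 over all 6498 genes. There, 8 of the 10 were at least 20% lower under the knockdown label and none was at least 25% higher, while 22.8% of all genes were that much lower and 10.6% that much higher. The other classes lay between or above. The medians were -0.12 in dendritic-cell-like, 0.05 in T-cell-like and 0.14 in tumour-like cells, beside -0.04, -0.07 and -0.03 over all genes of those classes. All of these classes were cut from the same pair of libraries and are not independent of each other.

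Member by member, the complex I core subunit mt-Nd1 was at 2299 and 2291 CPM in monocyte-macrophage-like cells (knockdown label first), which is even within counting error (1.00, 0.997 to 1.01). In neutrophil-like cells it was at 704 and 897 CPM, giving 0.784 (0.735 to 0.837), and in tumour-like cells at 5614 and 4469 CPM, giving 1.26 (1.22 to 1.29). The classes thus lay at, below and above an even ratio, with intervals that do not overlap.

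mt-Nd2 and mt-Nd4 had the same order of classes, and mt-Nd5 did not. mt-Nd2 had ratios of 1.02 in monocyte-macrophage-like, 0.697 (0.650 to 0.746) in neutrophil-like and 1.29 in tumour-like cells. For mt-Nd4 the ratios in this order were 0.998, 0.760 and 1.10, and for mt-Nd5 they were 1.00, 0.719 and 0.924. mt-Nd6 is the one protein gene read from the opposite strand of the mitochondrial genome. It had the lowest ratio of the measured mitochondrial-encoded members in monocyte-macrophage-like and neutrophil-like cells, at 39.0 against 54.4 CPM in the former (ratio 0.717, 0.685 to 0.750) and 18.7 against 40.1 CPM in the latter (0.466, 0.325 to 0.667). mt-Nd3 and mt-Nd4l did not reach the floor in either class, with 36 and 61 UMIs and with 158 and 152 UMIs in monocyte-macrophage-like cells.

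In complexes III, IV and V, mt-Cytb, the cytochrome b of complex III, was at 2703 and 2550 CPM in monocyte-macrophage-like cells (ratio 1.06) and at 1156 and 1562 CPM in neutrophil-like cells (0.740, 0.704 to 0.778). mt-Co1, the catalytic core of complex IV, had ratios of 0.949 and 0.686 (0.638 to 0.738) in these classes. Among the members with nearly all windows shared and past the floor, the ratios in monocyte-macrophage-like cells were above even, with mt-Co2 at 1.24 (1.14 to 1.36), mt-Atp6 at 1.24 (1.19 to 1.29) and mt-Co3 at 1.08 (1.02 to 1.13). In neutrophil-like cells mt-Co3 rested on 41 and 22 UMIs (1.03, 0.598 to 1.81) and mt-Atp6 on 68 and 42 UMIs (0.893, 0.599 to 1.34), and mt-Co2 did not reach the floor. mt-Atp8, a small subunit of the ATP synthase, was lower under the knockdown label in both classes, with ratios of 0.802 (0.772 to 0.832) and 0.682 (0.529 to 0.881). Its place inside the repeated stretch limits these ratios too.

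**Figure D2:**
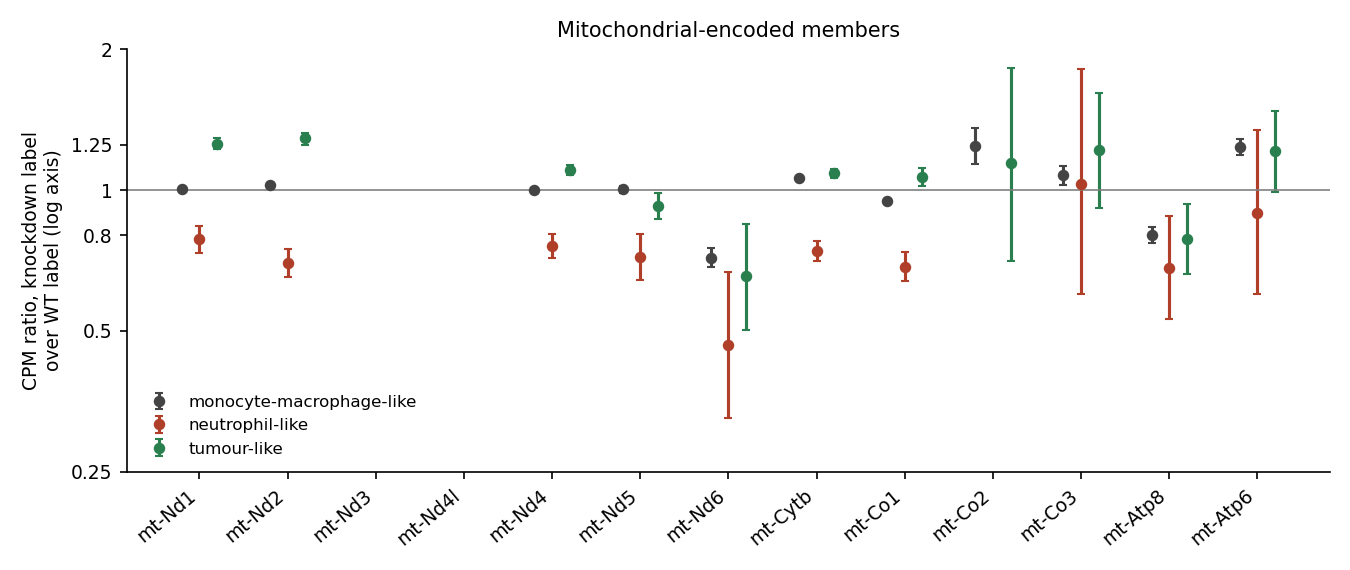
CPM ratio of each mitochondrial-encoded member, knockdown label over WT label (log axis), in 3 classes, with 95% intervals of counting error. Members under 20 UMIs or 10 CPM in a class are left out. In neutrophil-like cells 8 of 10 members lie at or under 0.8, in monocyte-macrophage-like cells most lie near 1, and in tumour-like cells mt-Nd1 and mt-Nd2 lie at 1.26 and 1.29.

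The neutrophil difference did not take the same size, or the same sign, in every part of the class. Over single cells the median share of mitochondrial-encoded UMIs was 0.130% under the knockdown label (quartiles 0.0350 and 0.373) and 0.281% under the WT label (0.0991 and 0.597), so the cells of both libraries overlap widely. Cells were then split by the level of neutrophil markers. With 50 to 200 marker UMIs per 10000 the shares were 0.513% and 0.555%, with 200 to 500 they were 0.462% and 0.631%, with 500 to 1000 they were 0.380% and 0.513%, and with 1000 or more they were 0.207% and 0.469%. The ratio thus went from 0.925 (0.885 to 0.966) in the lowest range to 0.441 (0.407 to 0.478) in the highest. The nuclear-encoded share went down over the same ranges from 1.14% to 0.599% under the knockdown label and from 1.13% to 0.609% under the WT label, with ratios between 0.912 and 1.01.

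**Figure D3:**
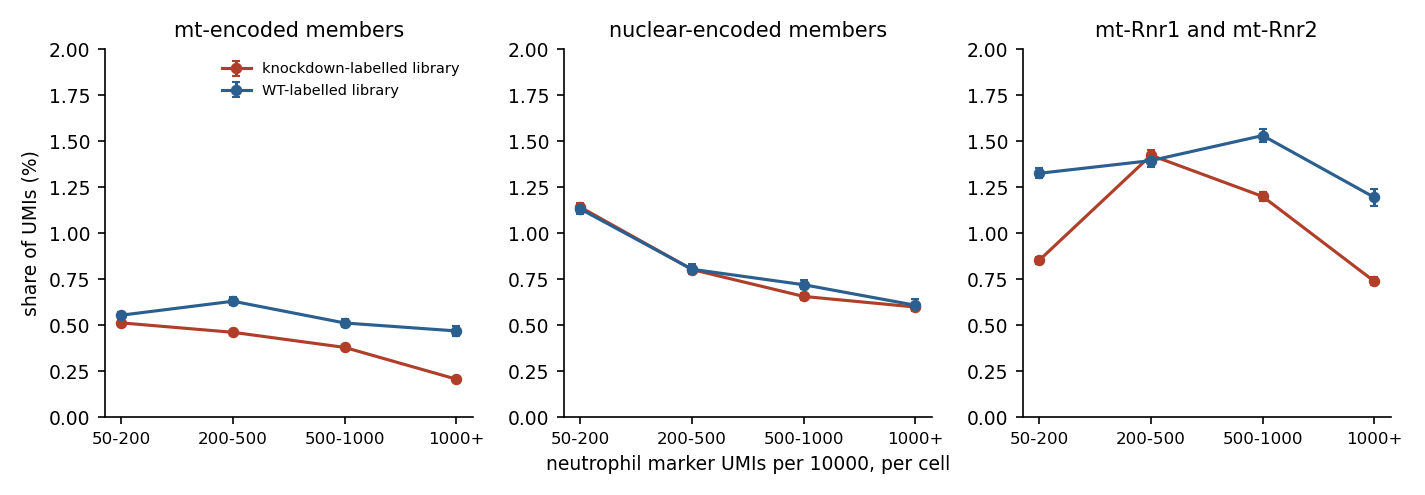
Share of UMIs (percent) from the mitochondrial-encoded members, the nuclear-encoded members and the mitochondrial ribosomal RNAs in neutrophil-like cells, over 4 ranges of neutrophil marker UMIs per 10000, with 95% intervals of counting error. For the mitochondrial-encoded members the libraries part from 0.513% and 0.555% in the lowest range to 0.207% and 0.469% in the highest, while the nuclear-encoded shares stay close.

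Macrophage transcripts (C1qa, C1qb, C1qc, Mrc1, Apoe and Ms4a7) also differed between the neutrophil-like cells of the libraries, at 25.2 and 33.5 per 10000 UMIs, and all 6 were present in both. In monocyte-macrophage-like cells, whose gate uses these genes among others, they were at 197 and 205. In neutrophil-like cells with at most 10 such UMIs per 10000 the mitochondrial-encoded share was higher under the knockdown label, 0.473% in 293 cells against 0.384% in 75 cells, a ratio of 1.23 (1.13 to 1.34). Above 10 to 20 the ratio was 0.589, above 20 to 50 it was 0.722 and above 50 to 100 it was 0.680. Transcripts of the dissociation response were at 257 and 228 per 10000 UMIs in neutrophil-like cells, and the nuclear-retained RNAs Malat1 and Neat1 at 250 and 261. The part of these differences, and of the acinar transcripts, in the mitochondrial result was not tested. The filter that removed cells with over 20% mitochondrial UMIs acts on the members themselves: it took 34 and 27 neutrophil-like cells, and with these cells kept the median was -0.65 and the ratio of shares 0.629 in place of 0.735.

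Nuclear-encoded members were near even between the labels as a list, with a few members lower and a few higher. In monocyte-macrophage-like cells the median difference over 84 measured members was 0.06, with 4 members at least 25% higher and 6 at least 20% lower, beside 2.58% of all genes higher and 5.29% lower. In neutrophil-like cells it was -0.03 over 80 members, with 5 higher and 14 lower. Those counts stand beside the 10.6% and 22.8% of all genes already given, and the sign of this median changed with the processing. In dendritic-cell-like cells the median was 0.04 over 86 members, with 7 higher and 13 lower beside 12.4% and 19.8% of all genes. In T-cell-like cells it was -0.10 over 76 members, with 6 higher and 19 lower beside 16.9% and 28.3%, and in tumour-like cells 0.06 over 89 members, with 6 higher and 15 lower beside 13.1% and 20.8%. The tumour-like median was -0.22 after thinning each cell to 1000 UMIs, over 51 members. By complex, the medians in monocyte-macrophage-like cells were 0.08 for complex I, 0.17 for complex II, 0.07 for complex III, 0.03 for complex IV, 0.05 for complex V and 0.03 for the assembly factors.

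**Figure D4:**
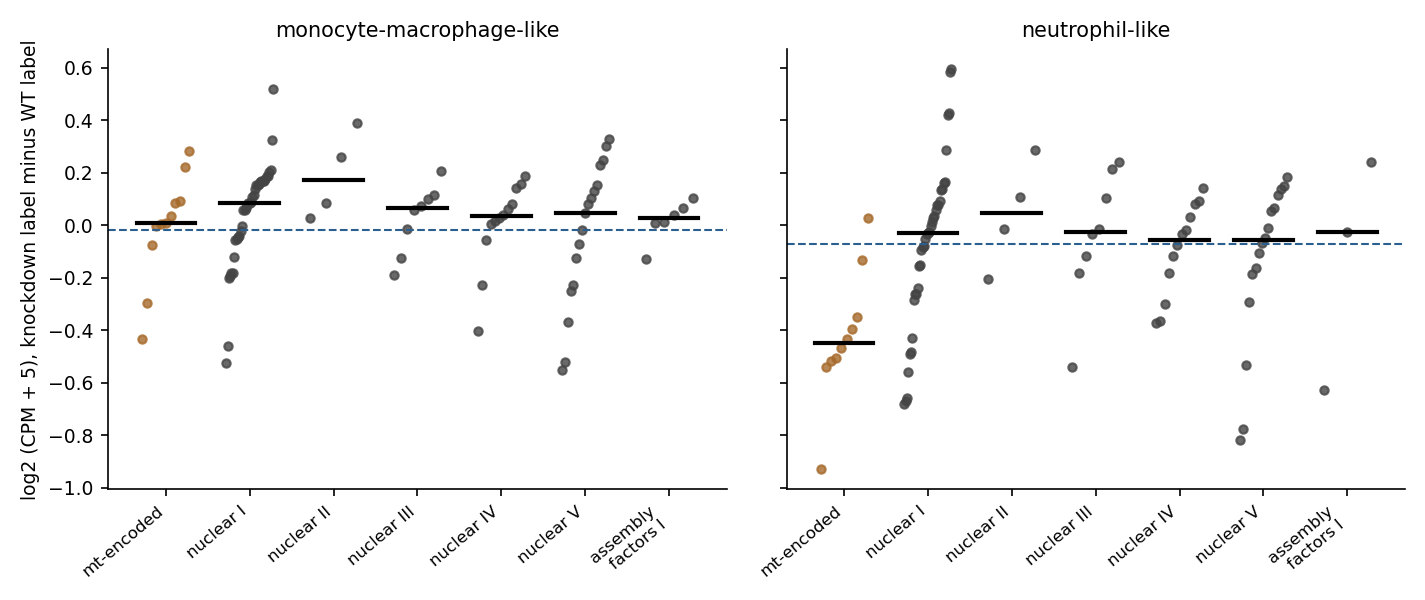
Difference of log2 (CPM + 5), knockdown label minus WT label, for each measured member in monocyte-macrophage-like (left) and neutrophil-like cells (right), grouped by genome and complex. Each point is 1 gene, bars are group medians and the dashed line is the median of all measured genes. The mitochondrial-encoded group has its median at 0.01 on the left and -0.45 on the right, with the dashed line at -0.02 and -0.07. Medians of the nuclear groups run from 0.03 to 0.17 on the left and from -0.06 to 0.05 on the right. Complex II is the highest of them in both panels.

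The 5 lowest ratios among nuclear members of monocyte-macrophage-like cells were those of Atp5l, Ndufb1, Atp5k, Ndufa3 and Cox7c. Atp5l, subunit g of the ATP synthase, was at 129 and 192 CPM (ratio 0.673, 0.657 to 0.690), and Atp5k, its subunit e, at 124 and 179 CPM (0.689, 0.671 to 0.706). Both sit where ATP synthase dimers meet. The complex I accessory subunits Ndufb1 and Ndufa3 had ratios of 0.687 (0.671 to 0.703) and 0.713 (0.689 to 0.738), and Cox7c of complex IV 0.754 (0.742 to 0.766).

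The 5 highest were Ndufab1, Sdhd, Ndufs8, Atp5o and Atp5g1. Ndufab1, the mitochondrial acyl carrier protein that is also a complex I subunit, was at 131 and 89.8 CPM (1.46, 1.41 to 1.50). Sdhd, a membrane anchor of complex II, was at 119 and 89.9 CPM (1.33, 1.29 to 1.37). Ndufs8, an iron-sulphur subunit of complex I, had a ratio of 1.27, Atp5o, the stalk subunit that confers oligomycin sensitivity, 1.26, and Atp5g1, which encodes the ring subunit c, 1.24.

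The other classes, cut from the same pair of libraries, are given side by side. For Atp5l the ratio was 0.554 (0.467 to 0.656) among neutrophil-like cells, 0.655 among dendritic-cell-like, 0.661 among T-cell-like and 0.610 among tumour-like cells. Ndufb1 had 0.623, 0.658, 0.679 and 0.638 in that order, and Ndufab1 had 1.60, 1.45, 0.951 (0.554 to 1.60) and 1.32. Sdhd was on the other side in T-cell-like cells, at 0.505 (0.231 to 1.02), on 11 and 34 UMIs. A ratio that recurs in each class of the same pair of libraries is 1 observation of those libraries and not several, and a difference in preparation or sequencing cannot be told apart from the label. The members were also read by transcript length. In monocyte-macrophage-like cells the median difference was -0.03 over 30 nuclear members with coding transcripts under 600 bases. It was 0.09 over 31 members of 600 to under 1000 bases and 0.08 over 22 longer ones. Over all genes measured the values were -0.01, 0.05 and -0.03. In neutrophil-like cells the members were at -0.10, -0.02 and 0.06, and all genes at -0.03, -0.01 and -0.08. The part of length in the ratios was not tested.

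In neutrophil-like cells, with fewer counts, the 5 lowest nuclear members were Ndufaf7 (0.499, 0.254 to 0.975), Ndufb4 (0.512, 0.289 to 0.906), Atp5l (0.554, 0.467 to 0.656), Atp5k (0.559, 0.441 to 0.709) and Ndufc1 (0.607, 0.496 to 0.743). Ndufaf7 is an assembly factor that methylates a complex I subunit, and Ndufb4 and Ndufc1 are accessory subunits of complex I. The 5 highest were the complex I accessory subunits Ndufa10 (1.65, 1.09 to 2.57), Ndufa12 (1.50, 0.859 to 2.74) and Ndufb6 (1.38, 1.06 to 1.82), Ndufab1 (1.60, 1.13 to 2.28) and the assembly factor Ndufaf3 (1.29, 0.685 to 2.54). For Ndufa12 and Ndufaf3 the interval holds an even ratio, and these values rest on 49 and 18 UMIs and on 35 and 15 UMIs. Both passed the floor only through the knockdown label. Ndufaf7 (19 and 21 UMIs) and Ndufb4 (26 and 28 UMIs) passed it only through the WT label. The filter thus bears on the places of these members, which are a description alone.

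The promoters of the lowest and the highest nuclear member of monocyte-macrophage-like cells are shown because nuclear respiratory genes are known to be controlled at the promoter by NRF1 and by ETS factors such as GABP. The sequences come from RefSeq (build GRCm38.p6) and run from 250 bases before to 50 after the annotated start, where 77 of the 99 nuclear symbols had at least 1 promoter. Both strands were searched for GCATGCG (the core of the NRF1 motif) and CCGGAAG (ETS), neither of which holds the other, and matches are in capitals. The NRF1 core was chosen after these windows had been seen. The first is Atp5l (chr9:44920693-44920992, minus strand), the second Ndufab1 (chr7:122101799-122102098, minus strand):
Atp5l: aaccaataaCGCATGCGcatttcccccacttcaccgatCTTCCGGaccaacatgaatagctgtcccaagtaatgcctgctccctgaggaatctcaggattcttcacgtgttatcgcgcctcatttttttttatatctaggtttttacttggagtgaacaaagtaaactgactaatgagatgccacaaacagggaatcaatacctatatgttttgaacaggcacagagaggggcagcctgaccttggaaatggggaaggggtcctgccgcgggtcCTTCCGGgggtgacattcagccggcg
Ndufab1: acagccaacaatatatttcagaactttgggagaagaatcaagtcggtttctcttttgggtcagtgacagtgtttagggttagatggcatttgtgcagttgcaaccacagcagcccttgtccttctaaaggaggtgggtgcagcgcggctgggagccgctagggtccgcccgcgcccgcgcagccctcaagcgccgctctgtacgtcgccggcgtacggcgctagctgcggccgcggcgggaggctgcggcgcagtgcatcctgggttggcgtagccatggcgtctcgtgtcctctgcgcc

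The Atp5l window held 2 ETS matches and 2 NRF1 matches, the latter overlapping on opposite strands, and the Ndufab1 window held none. Among the 82 promoters of nuclear members 19 (23.2%) held the ETS letters and 13 (15.9%) the NRF1 letters, against 8.86% and 3.58% of all 32851 promoters in the table. These are counts of letters in a window and say nothing about binding in these cells.

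Complex II is the one complex without a mitochondrial-encoded subunit, and its 4 genes were all measured. In monocyte-macrophage-like cells Sdha, the flavoprotein that oxidises succinate, was at 108 and 106 CPM (1.02, 0.990 to 1.05). The iron-sulphur subunit Sdhb was at 111 and 91.8 CPM (ratio 1.21), and the membrane anchor Sdhc at 131 and 124 CPM (1.06, 1.03 to 1.09). Together with Sdhd they made up a share that was 1.14 times as high under the knockdown label (1.12 to 1.16). In neutrophil-like cells this ratio was 1.05 (0.905 to 1.22), and in T-cell-like cells 0.904 (0.698 to 1.17).

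Tissue-specific isoforms of complex IV were rare in these cells. Cox4i1, the common isoform of subunit IV, was at 1179 and 1057 CPM in monocyte-macrophage-like cells (1.12, 1.11 to 1.13), whereas Cox4i2, its oxygen-responsive isoform, was at 4.40 and 2.44 CPM on 366 and 195 UMIs, under the floor, with a ratio whose interval was 1.51 to 2.15. Cox6a1 and Cox6b1 were at 218 and 190 CPM and at 467 and 448 CPM, and the muscle and testis isoforms Cox6a2 and Cox6b2 at 1.30 and 1.22 CPM and at 2.28 and 3.14 CPM. Cox7a2 was at 363 and 378 CPM and Cox7a2l, which joins complexes III and IV in supercomplexes, at 302 and 296 CPM, with the muscle isoform Cox7a1 at 5.66 and 6.72 CPM. Cox8a was at 859 and 856 CPM. The muscle isoform Cox8b had 0 and 1 UMI, and Cox8c had 0 UMIs in each of the 5 classes. Ndufa4 was at 665 and 657 CPM (1.01, 1.00 to 1.02), and Ndufa4l2 had 9 and 15 UMIs. In tumour-like cells Ndufa4l2 was at 6.67 and 11.1 CPM on 11 and 29 UMIs, with a ratio of 0.602 (0.272 to 1.24).

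Cox6a2 reached the floor in 2 classes. It was at 3.07 and 18.0 CPM in dendritic-cell-like cells (6 and 51 UMIs) and at 23.0 and 12.2 CPM in tumour-like cells (38 and 32 UMIs). Cox6b2 was at 7.67 and 10.6 CPM in dendritic-cell-like cells on 15 and 30 UMIs.

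Within monocyte-macrophage-like cells the members differed with the level of hypoxia markers, in the same direction in both libraries. Cells were split by the summed UMIs of Adm, Bnip3, Egln3, Vegfa, Ero1a and Ndrg1, genes known to be induced when oxygen is low. From the 1623 and 1594 cells with none to the 160 and 149 cells with over 50 per 10000, the mitochondrial-encoded share went from 1.17% to 0.379% under the knockdown label and from 1.10% to 0.516% under the WT label. The values between were 0.977%, 0.817% and 0.549% in the first library and 0.972%, 0.829% and 0.544% in the second. The nuclear-encoded share was highest in the range above 0 to 5, at 2.07% and 2.01%, and went from 1.99% to 1.28% and from 1.90% to 1.32% between the ends. Median depth in these end ranges was 8837 and 6950 UMIs under the knockdown label and 8430 and 8108 under the WT label, and 163 and 174 cells lay within 20% of the boundary at 50. The nuclear-retained RNAs Malat1 and Neat1, read as a sign of RNA quality, were at 108 per 10000 UMIs without a hypoxia marker and 186 in the highest range under the knockdown label, and at 128.5 and 175 under the WT label. Within monocyte-like cells, defined below, they were at 97.5 and 211 and at 91.0 and 186. Their part in the result was not tested.

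Comparing the highest range with the cells without a hypoxia marker, all 11 measured mitochondrial-encoded members were at least 20% lower in the knockdown-labelled library and 10 of 11 in the WT-labelled library. Of 85 measured nuclear members, 66 were lower and 2 higher in the first library, and 62 lower and 4 higher in the second. For members that reach the floor in only 1 of the ranges, the filter favours a higher level in that range. Of the mitochondrial-encoded members past the floor in both ranges, 10 of 10 were lower in the first library and 9 of 10 in the second. Of the nuclear members past it in both, 60 of 78 were lower and 1 higher in the first library. In the second, 55 of 77 were lower and 3 higher. The background was wide: 55.1% of all genes were lower and 22.3% higher in the knockdown-labelled library, and 53.6% lower and 22.7% higher in the WT-labelled library. These shares include genes past the floor in only 1 range. No share was computed over all genes past it in both, so the counts past both have no matched background. The median differences were -0.87 and -0.62 for mitochondrial-encoded and -0.71 and -0.66 for nuclear-encoded members, beside -0.38 and -0.35 for all genes (6 hypoxia markers left out). By complex the medians under the knockdown label were -0.79 for complex I, -0.97 for complex II, -0.62 for complex III, -0.40 for complex IV and -0.52 for complex V, and the assembly factors were lower than each of these. These medians include members past the floor only through the cells without a marker (6 and 7 nuclear members). The filter thus bears most on genes of low level, such as Ndufaf2, Ndufaf3, Ndufaf6 and Ndufaf7 (12.7 to 22.2 CPM in the class under the knockdown label). No median over members past the floor in both ranges was computed. Complex IV was thus close to the median of all genes, and under the WT label it was at -0.26.

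Subunit IV of complex IV comes from 1 of a pair of paralogues. Cox4i2 (chr2:152754173-152765037, plus strand) was at 1.81, 2.89, 5.75, 13.3 and 27.4 CPM over the 5 ranges under the knockdown label and at 1.43, 1.30, 3.65, 6.20 and 19.6 CPM under the WT label. The highest range was 15.2 times (8.97 to 26.0) and 13.7 times (7.42 to 25.8) the level of cells without a hypoxia marker. These ratios rest on 38 against 26 UMIs and on 27 against 20 UMIs. Cox4i2 reached the floor only through the highest range, where it was high, so the ratios are a description and support nothing about complex IV. Cox4i1 (chr8:120668222-120674207, plus strand) was at 1251 and 961 CPM at the ends of the ranges in the first library and at 1127 and 824 CPM in the second, ratios of 0.768 (0.726 to 0.812) and 0.731 (0.688 to 0.777). In the highest range Cox4i1 still held 1333 UMIs against 38 of Cox4i2, and 1134 against 27, for coding transcripts of 745 and 730 bases in the median.

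Ndufa4 (chr6:11900292-11907497, minus strand), whose paralogue Ndufa4l2 is another hypoxia-responsive gene and had too few UMIs here to be read by range, was at 765, 730, 534, 366 and 239 CPM over the ranges under the knockdown label. Under the WT label it was at 734, 728, 538, 348 and 232 CPM. The ratios between the ends were 0.312 (0.279 to 0.348) and 0.317 (0.283 to 0.354).

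Of the mitochondrial-encoded members, mt-Nd1 had end ratios of 0.206 (0.192 to 0.220) and 0.347 (0.328 to 0.367), and mt-Cytb 0.314 and 0.459. mt-Co1 had the ratio nearest to even of the measured mitochondrial-encoded members, 0.742 (0.697 to 0.788) in the first library and 0.830 (0.784 to 0.878) in the second. The mitochondrial ribosomal RNAs, which are no members, did not follow: their share was 0.545% and 0.583% at the ends under the knockdown label and 0.591% and 0.585% under the WT label. Among nuclear members, Ndufv3 (1.34 and 1.78), a small accessory subunit of complex I, and Cox7b (1.22 and 1.30) were above even in both libraries. Sdhb (0.293 and 0.414), Atp5a1 (0.452 and 0.426), which encodes the alpha subunit of the ATP synthase, and the assembly factor Ndufaf4 (0.154 and 0.178) were well below. Ndufv3 and Cox7b were named here after their values had been seen.

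**Figure D5:**
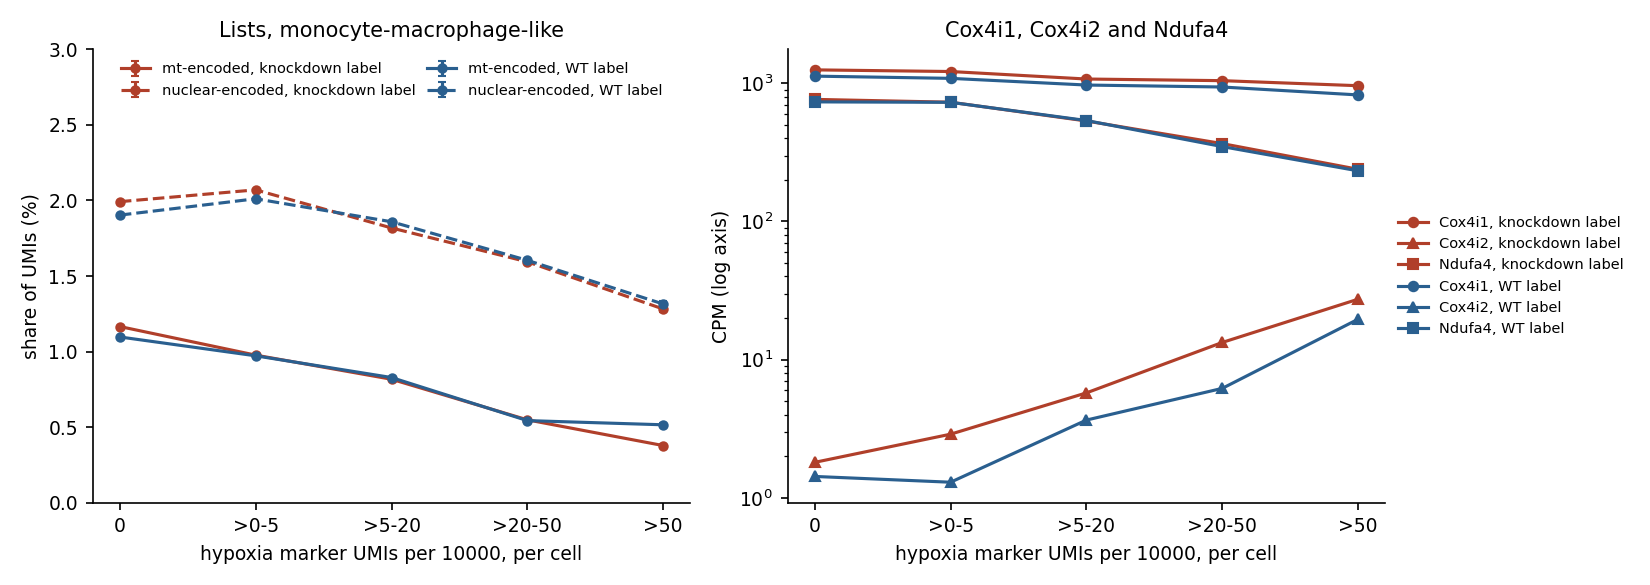
Monocyte-macrophage-like cells over 5 ranges of summed hypoxia marker UMIs per 10000 in each library. Left, share of UMIs (percent) from both lists with 95% intervals of counting error. Right, CPM (log axis) of Cox4i1, Cox4i2 and Ndufa4. Cox4i2 goes up from 1.81 to 27.4 CPM and from 1.43 to 19.6 CPM, while Ndufa4 goes down from 765 to 239 and from 734 to 232 CPM.

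The ranges were also read within monocyte-like and macrophage-like cells apart. The mitochondrial-encoded share was lower in monocyte-like cells (Ly6c2, Plac8, Vcan, Ccr2 and Chil3 high), at 0.742% and 0.770%, than in macrophage-like cells (complement C1q genes, Mrc1, Apoe and Ms4a7 high), at 1.07% and 1.06%. The nuclear-encoded share differed less, at 1.90% and 1.95% against 2.01% and 1.93%. Within macrophage-like cells the mitochondrial-encoded share was 1.24% and 1.16% without a hypoxia marker and 0.646% and 0.620% at above 20 to 50 per 10000, and just 10 and 13 cells lay above 50. Within monocyte-like cells it was 0.787% and 0.792% without a marker and 0.341% and 0.349% above 50, in 66 and 48 cells. Between the labels, the highest range as a whole had a mitochondrial-encoded ratio of 0.734 (0.708 to 0.761). It was 0.976 (0.907 to 1.05) within its monocyte-like cells and 1.12 (1.01 to 1.24) within its few macrophage-like cells. In the remaining 84 and 88 cells, which met neither definition and are most of the range, the shares were 0.369% and 0.570%, with a ratio of 0.647 (0.618 to 0.677). In cycling cells the mitochondrial-encoded share was 0.935% and 0.888%, and in cells without a cycling marker 0.906% and 0.915%, so the libraries differed in direction. The nuclear-encoded share was higher in cycling cells of both, at 2.07% and 2.03% against 1.83% and 1.82%, and these cells were deeper, with medians of 20077 and 19250.5 UMIs against 9610 and 9511.

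Neutrophil-like cells had lower levels of nearly all members than monocyte-macrophage-like cells of the same library. In the knockdown-labelled library 81 of 84 measured nuclear members were at least 20% lower and none was at least 25% higher, beside 65.0% of all genes lower and 23.5% higher. In the WT-labelled library 78 of 84 were lower and none higher, beside 63.2% lower and 24.6% higher. Past the floor in both classes, where the filter does not fix the direction, 75 of 78 nuclear members were lower in the first library and 72 of 78 in the second. The shares of all genes just given include genes past the floor in only 1 class. No share was computed over all genes past it in both, so these counts have no matched background. The median differences of the nuclear members were -1.30 and -1.19, and those of all measured genes were -0.81 and -0.72. S100a9 alone was at 28182 and 22682 CPM in neutrophil-like cells. Relative to the median of all genes, the nuclear members were lower in both libraries. The mitochondrial-encoded members had medians of -0.96 and -0.60, with 11 and 8 of 11 lower. Of those past the floor in both classes, 10 of 10 and 7 of 10 were lower. Their median lay below that of all genes in the knockdown-labelled library and above it in the WT-labelled library. Summed macrophage marker transcripts were at 0.128 and 0.163 of their macrophage level in neutrophil-like cells, against 0.421 and 0.457 for the nuclear-encoded members. The gates set a ceiling on these markers in neutrophil-like cells and use them to select monocyte-macrophage-like cells. The marker ratios were therefore largely set by the selection and are no measure for the members.

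The lowest and highest members are named as a description. In the knockdown-labelled library the lowest were the assembly factors Ndufaf4 (0.168, 0.112 to 0.241) and Ndufaf6 (0.169, 0.0679 to 0.350), the complex I subunits Ndufa9 (0.192) and Ndufv1 (0.224), and Sdhc (0.238). Ndufaf4 and Ndufaf6 were at 9.04 and 2.18 CPM on 29 and 7 UMIs in neutrophil-like cells and passed the floor only through the macrophage side. In the WT-labelled library they were Ndufaf4 (0.119, 0.0594 to 0.213), Ndufa10 (0.164), the complex III core proteins Uqcrc2 (0.237) and Uqcrc1 (0.243), and Atp5a1 (0.243), with Ndufaf4 again under the floor in neutrophil-like cells at 11 UMIs. The highest were Cox8a (0.886), Ndufa7 (0.814), Ndufb1 (0.807), Ndufa3 (0.781) and mt-Atp8 (0.729) in the first library. In the second they were Ndufa7 (0.947), mt-Nd5 (0.921), mt-Nd2 (0.899), Ndufb1 (0.890) and mt-Atp8 (0.856). No measured member was above even in either library.

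The mitochondrial ribosomal RNAs went the other way. mt-Rnr1 was at 3694 CPM in neutrophil-like and 1311 CPM in monocyte-macrophage-like cells under the knockdown label (2.82 times, 2.77 to 2.87), and at 4714 and 1370 CPM under the WT label (3.44 times). mt-Rnr2 was at 6944 against 3139 CPM and at 9048 against 3476 CPM. Per cell, however, neutrophil-like cells held 17.4 and 21.5 UMIs of ribosomal RNA and 6.66 and 8.64 UMIs of mitochondrial-encoded members. The values per monocyte-macrophage-like cell were 57.6 and 59.9 for ribosomal RNA and 122 and 115 for the members. Between the labels, ribosomal RNA in neutrophil-like cells was at 0.773 (0.760 to 0.786) and the mitochondrial-encoded members at 0.735 (0.716 to 0.754).

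Genes that serve the complexes were read from lists outside the members. In monocyte-macrophage-like cells 70 of 76 measured mitochondrial ribosomal protein genes had a difference above 0 between the labels, beside 45.2% of all genes, with a median of 0.13, and 4 were at least 25% higher, beside the 2.58% of all genes given above. These 4, named for passing that size, were Mrpl22 (1.35, 1.28 to 1.43), Mrps28 (1.33), Mrps18b (1.30) and Mrps11 (1.30). The 14 genes of the tricarboxylic acid cycle, which feeds complexes I and II, had a median of 0.05, the 30 measured electron carriers and assembly factors that are not members 0.06 and the 7 regulators of biogenesis -0.02. In neutrophil-like cells the ribosomal proteins were at 0.03 over 61 genes and the cycle at 0.11 over 13 genes. Of the 14 genes for mitochondrial transcription and RNA just 3 reached the floor there, Polg (0.629, 0.444 to 0.894), Slirp (0.753, 0.552 to 1.03) and Ssbp1 (0.892, 0.631 to 1.27). Tfam, which packages and transcribes the mitochondrial genome, had 17 and 17 UMIs and gave no usable ratio (0.552, 0.265 to 1.15).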

How the data were processed

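The authors deposited 1 matrix of whole UMI counts per gene and barcode, made with Cell Ranger 7.1.0 per the file headers. Per the submitters' processing notes the genome build was mm10. The annotation release was not stated in those notes or in the headers. A deposited table gave each barcode's library. Barcodes were kept with at least 200 genes, 500 UMIs and at most 20% mitochondrial UMIs. Classes were gated on summed marker UMIs per 10000. Cells meeting 2 gates, or 1 gate with 100 or more macrophage marker UMIs per 10000, were set aside as mixed (142 and 108), and no doublet caller was run. Counts were summed per class and library and given as CPM. Medians used log2 (CPM + 5) over genes whose maximum over the groups compared was 20 UMIs or more and 10 CPM or more. Counts of higher and lower genes used CPM, at least 25% higher or 20% lower. Named are all mitochondrial-encoded members, complex II, isoform pairs and the 5 highest and 5 lowest nuclear ratios of each class of at least 200 cells per library and, over all members, of neutrophil-like over monocyte-macrophage-like cells. Members and lists were chosen with earlier results of these data known. Monocyte-like cells had at least 10 monocyte and under 50 macrophage marker UMIs per 10000, macrophage-like cells at least 100 and under 10. The ranges of hypoxia and neutrophil markers were set after the data were seen. Ratio intervals were tried on Poisson counts simulated around the pooled class levels, the model that the intervals assume. The simulation held no spread between cells or mice, so it checks the computation alone. Python 3.11.15, numpy 2.4.6, scipy 1.17.1, pandas 2.3.3 and matplotlib 3.10.9 were used. Of the listed gene identifiers 52081 were found in GENCODE vM21, and all 113 members.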

Additional observations from a re-analysis of the deposited data

Results flagged for a closer look

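Some members stood on opposite sides of an even ratio (knockdown label over WT label) in different classes, with counting intervals that excluded it on both sides. The difference between classes was not tested, since each class has 1 library per label. The summed share of mitochondrial-encoded members stood at 1.14 in tumour-like and 0.735 in neutrophil-like cells. Among them, mt-Nd1 was at 1.26 and 0.784 and mt-Nd2 at 1.29 and 0.697 in these classes. The neutrophil-like ratio turned to 1.23 in the cells with the fewest macrophage transcripts. The nuclear-encoded share stood at 1.02 in tumour-like and 0.936 in T-cell-like cells, but over the processing alternatives it ranged from 0.898 to 1.05 in the former and from 0.924 to 0.991 in the latter, so the tumour-like side was not kept. Cox6c, a small complex IV subunit, was at 1.29 in tumour-like and 0.768 in neutrophil-like cells. Cox6a2 was at 1.89 in tumour-like and 0.170 in dendritic-cell-like cells, where it rests on 6 and 51 UMIs. The tumour-like class holds 59 and 100 cells.

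Counts were also assigned to the 7 nuclear copies of mitochondrial genes on chromosome 1, which are no members. Whether these reads came from the copies or from the mitochondrial genes was not tested. The mitochondrial-encoded shares leave them out. The ratio of that share in monocyte-macrophage-like cells (1.01) was thus computed without the reads of Gm28438. It was not computed again with them counted in. Over all barcodes Gm28438 held 35479 UMIs, against 107 in Gm29216, 237 in Gm28661, 274 in Gm10925, 341 in Gm28437, 19 in Gm10222 and 40 in Gm28439. Gm28438, the copy of mt-Nd3, was at 99.8 CPM under the knockdown label and 252 CPM under the WT label in monocyte-macrophage-like cells, 0.396 times as high (0.386 to 0.406). In neutrophil-like cells it was at 39.0 and 139 CPM, in dendritic-cell-like cells at 63.4 and 157, in T-cell-like cells at 92.4 and 209 and in tumour-like cells at 253 and 550.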

How the results depend on the processing

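No paired analysis was possible because each label has 1 library and no replicate number, and for that reason no replicate could be left out either. Values are given as median log2 differences or ratios of summed shares, knockdown label over WT label unless said otherwise. In monocyte-macrophage-like cells the mitochondrial-encoded median (0.01) was 0.027 after scaling by the median ratio of measured genes, 0.074 with each cell weighing the same and 0.079 after thinning to 1000 UMIs. The share ratio there (1.01) was 1.00 with a mitochondrial ceiling of 10% and 1.03, 1.04 and 1.06 under the 3 settings just named. The nuclear share ratio (1.02) was 1.04 scaled by the median, 1.02 with equal cells, 1.03 under a stricter gate and 1.02 without the 7% of cells with most UMIs. In neutrophil-like cells the mitochondrial-encoded median (-0.45) was -0.65 with no ceiling. The share ratio (0.735) was 0.629 with no ceiling, 0.704 with a ceiling of 10%, 0.777 scaled by the median, 0.687 with equal cells, 0.700 thinned and 0.674 without the deepest cells.

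Alternatives added after seeing the data moved it further. Among neutrophil-like cells with up to 10 macrophage marker UMIs per 10000 the direction turned, to a median of 0.29 and a share ratio of 1.23. There mt-Atp8 was at 1.60, mt-Co1 at 1.16, mt-Cytb at 1.19, mt-Nd1 at 1.44, mt-Nd2 at 1.26, mt-Nd4 at 1.16, mt-Nd5 at 1.23 and mt-Nd6 at 1.11. With up to 20 the share ratio was 0.770, and with at least 200 neutrophil marker UMIs 0.655. The nuclear share ratio (0.941) was 0.995 scaled by the median, 0.921 without the deepest cells, 1.00 with up to 10 and 0.898 with up to 20 macrophage marker UMIs. The nuclear median (-0.03) ranged from -0.11 to 0.04 over 17 alternatives. Further reversals were mt-Nd3 in monocyte-macrophage-like cells after thinning (1.26), and, in neutrophil-like cells, Ndufa9 under a stricter gate (1.18), Ndufaf3 after thinning (0.702) and without the deepest cells (0.934), Ndufaf4 with equal cells (0.952) and Ndufaf7 with up to 20 macrophage marker UMIs (1.18). The cause of these changes was not tested.

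The alternatives of the comparisons in this paragraph were all added after seeing the data. For neutrophil-like minus monocyte-macrophage-like cells, scaling by the median took the mitochondrial-encoded median to -0.22 in the knockdown-labelled library and, with a change of sign, to 0.18 in the WT-labelled library. The nuclear median became -0.36 and -0.34. In the knockdown-labelled library the mitochondrial-encoded median was also -1.32 with equal cells, -1.44 thinned, -1.29 without the deepest cells and -1.22 with a pseudocount of 1 CPM. In the WT-labelled library it was -1.15 in cells with up to 10 macrophage marker UMIs. The nuclear median was -0.88 and -0.87 in those cells and -1.54 and -1.51 with at least 200 neutrophil marker UMIs. For the hypoxia ranges the mitochondrial-encoded median under the knockdown label was -1.38 thinned. The nuclear median was -0.29 and -0.28 scaled by the median, -0.28 and -0.24 for macrophage-like cells above 20 marker UMIs against none, and -0.38 for monocyte-like cells of the WT-labelled library. For the lists, 189 further values under the alternatives moved by no more than the mean distance to the bounds of the counting interval of the value in the report (for a median, the interval between the medians of its members' bounds). Depth limits the neutrophil-like and T-cell-like members most.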
